A study of Mus musculus with 17 samples.

Results

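The genes described here are the 10 protein-coding neighbours of Cxcr4 on mouse chromosome 1: Mgat5, Tmem163, Acmsd, Ccnt2, Rab3gap1, Zranb3, R3hdm1, Ubxn4, Dars and Thsd7b. They were taken by name for their place beside the knocked-in locus, with no use of their measured values, and all 10 were found among the 55335 gene identifiers of the count tables. RNA was sequenced from osteoprogenitor cells (OPCs) and skeletal stromal/stem cells (SSCs) sorted from the bone fraction of adult mice. The mice were Cxcr4+/+ (WT), carried 1 copy of the 1013 allele (Cxcr4+/1013, hereafter +/1013) or carried 2 copies (1013/1013). The OPC groups held 3 WT, 3 +/1013 and 3 1013/1013 libraries, and the SSC groups 3, 3 and 2. Per the study's methods the mice were female littermates aged 8 to 12 weeks unless specified otherwise. The 1013 allele was introduced by knock-in into the germ line, so that every cell of a mutant animal carried it, and the homozygotes were bred from +/1013 parents. The methods text does not give the number of backcrosses or the extent of flanking DNA inherited with the allele. Each library was made from a pool of cells from 3 mice. OPCs were gated as CD45-, TER119-, CD31-, Sca-1-, CD51+ and PDGFRα+/- cells, and SSCs as Sca-1+, CD51+, PDGFRα+ cells negative for the same lineage markers.

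Cxcr4 encodes the receptor of the chemokine CXCL12, which holds blood-forming and stromal cells in the bone marrow. The 1013 mutation truncates the tail of the receptor, as in the WHIM immunodeficiency syndrome, and leaves it slow to switch off after ligand binding. An engineered allele is inherited together with the DNA on either side of it. A comparison of mutant mice with WT littermates may therefore also compare that flanking DNA, wherever it differs from that of WT. The question asked of the 10 neighbours was whether their RNA levels differed with the number of 1013 alleles. The neighbours are not a pathway. Dars (aspartyl-tRNA synthetase) and Ubxn4 (an anchor of the p97 ATPase at the endoplasmic reticulum) act in protein synthesis and protein degradation. Ccnt2 (a cyclin of the elongation factor P-TEFb), Zranb3 (a remodeller of stalled replication forks) and R3hdm1 (which has an R3H nucleic-acid-binding domain) act on nucleic acids. Rab3gap1 (the catalytic subunit of the Rab3 GTPase-activating complex), Mgat5 (the glycosyltransferase that adds the β1,6 branch to N-glycans), Tmem163 (a zinc-binding membrane protein) and Thsd7b (a membrane protein with thrombospondin repeats) act at membranes. Acmsd diverts tryptophan breakdown away from NAD synthesis.

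The 10 genes spanned chr1:127205015-130219278 of mm10, by the GENCODE M21 annotation. Within that stretch of 3.01 Mb the annotation held 49 genes, of which 14 were protein-coding: the 10 neighbours, Cxcr4 itself (chr1:128588199-128592293, minus strand), and Map3k19, Lct and Mcm6. Of the neighbours, 9 lay on the side of lower coordinates. Dars was the nearest, ending 170.8 kb from Cxcr4, followed by Ubxn4 (308.8 kb), R3hdm1 (350.5 kb), Zranb3 (485.2 kb), Rab3gap1 (644.3 kb), Ccnt2 (780.1 kb), Acmsd (820.2 kb), Tmem163 (908.7 kb) and Mgat5 (1099.9 kb). Thsd7b lay alone on the other side, 681.0 kb away. Mgat5 and Tmem163 shared 152 exonic bases at their 3′ ends on opposite strands, Acmsd shared 94 and Zranb3 706 with antisense genes, and with a kit that does not mark strand, reads from such bases cannot be assigned to one gene of the pair.

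The region around each transcription start was read from RefSeq (GRCm38.p6), as the 250 bases before and the 50 bases after the start, for 9 of the neighbours (without Acmsd). These windows are shown for the neighbour with the highest level (Dars), for the pair that starts head to head (R3hdm1 and Zranb3) and for the gene seen in 1013/1013 OPCs and in no WT library (Thsd7b). Capitals mark each CG dinucleotide, which reads the same on both strands.
Dars, chr1:128417367-128417666, minus strand: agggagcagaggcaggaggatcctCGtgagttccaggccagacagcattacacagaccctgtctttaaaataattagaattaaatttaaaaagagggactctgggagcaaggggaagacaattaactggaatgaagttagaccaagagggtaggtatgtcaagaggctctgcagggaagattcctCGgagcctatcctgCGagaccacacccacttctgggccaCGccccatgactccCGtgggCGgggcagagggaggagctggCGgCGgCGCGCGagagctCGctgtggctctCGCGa
R3hdm1, chr1:128103056-128103355, plus strand: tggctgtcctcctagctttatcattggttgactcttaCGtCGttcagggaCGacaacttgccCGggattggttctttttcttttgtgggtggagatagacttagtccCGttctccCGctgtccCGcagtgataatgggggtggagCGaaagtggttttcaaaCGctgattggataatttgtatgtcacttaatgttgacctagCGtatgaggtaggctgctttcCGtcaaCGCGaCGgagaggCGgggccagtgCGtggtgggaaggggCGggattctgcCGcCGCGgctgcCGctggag
Thsd7b, chr1:129273054-129273353, plus strand: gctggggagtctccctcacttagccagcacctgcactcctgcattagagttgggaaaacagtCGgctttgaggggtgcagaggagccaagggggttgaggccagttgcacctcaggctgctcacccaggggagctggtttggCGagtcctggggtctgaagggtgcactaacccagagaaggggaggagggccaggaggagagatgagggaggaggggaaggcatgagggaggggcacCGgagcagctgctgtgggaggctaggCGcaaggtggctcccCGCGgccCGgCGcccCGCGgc
The R3hdm1 window overlapped that of Zranb3 (chr1:128102998-128103297, minus strand) by 242 bases, and 253 bases separated the annotated starts of the 2 genes. CG dinucleotides numbered 32 in the window of Ccnt2, 21 in R3hdm1, 18 in Mgat5 and in Rab3gap1, 17 in Ubxn4, 16 in Zranb3, 15 in Tmem163, 14 in Dars and 10 in Thsd7b. The median over all 32851 RefSeq windows was 7, and 94.6% held at least 1. The Tmem163 window lay 1527 bases from the gene's GENCODE start. The letters TATAAA were found on neither strand of any of these 9 windows, against 13.6% of all windows.

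Libraries held 64099849 to 92683497 gene-assigned reads in OPCs and 44217695 to 50509592 in SSCs. The sort markers matched the gates: Ly6a, which encodes Sca-1, was at 0.453 to 11.8 CPM (counts scaled to library size) in OPCs and 530 to 1789 CPM in SSCs (CPM here and below are scaled within each cell type), and Pdgfra at 52.2 to 115 and 363 to 608 CPM. Of the list of 15 leukocyte genes, the summed share was 1.95% of counts in OPC WT replicate 3, 1.62% in OPC 1013/1013 replicate 2 and 1.46% in SSC WT replicate 3, against at most 0.135% in the other 14 libraries. In SSCs, the WT libraries also stood apart from all mutant libraries in other respects. Reads outside annotated features were 3.68% to 4.15% against 1.504% to 2.69%, genes with a count 21449 to 22599 against 15748 to 19227, and counts on the osteoblast lineage list 1.16% to 1.66% against 0.227% to 0.479%. In SSCs these differences cannot be told apart from the genotype. In pooled cells, fewer cells of a type and less RNA per cell cannot be told apart either.

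On a scale of CPM per kilobase of exon (RPKM, all 17 libraries scaled together), the neighbours covered a wide range. Dars was highest, with a median of 37.9 RPKM in OPCs (range 30.4 to 40.8) and 15.0 RPKM in SSCs (10.7 to 24.5). Ubxn4 followed at 13.2 RPKM in OPCs (10.5 to 18.4) and 14.2 RPKM in SSCs (11.7 to 20.2), and Rab3gap1 at 3.97 (3.02 to 4.98) and 3.34 (2.64 to 7.42). In WT OPCs these 3 genes did not overlap in level, whereas in SSCs the ranges of Dars and Ubxn4 overlapped in every genotype. Ccnt2, Mgat5, R3hdm1 and Zranb3 had medians of 1.16, 0.923, 0.764 and 0.604 RPKM in OPCs and of 1.34, 0.950, 0.611 and 0.154 RPKM in SSCs. In WT OPCs the ranges of neighbours in order overlapped among these 4. Tmem163, Acmsd and Thsd7b lay at the bottom, with medians of 0.00646, 0 and 0 RPKM in OPCs and of 0.0214, 0 and 0 RPKM in SSCs. Per longest transcript instead of per exon union, R3hdm1 moved ahead of Ccnt2, at 2.85 against 1.87 RPKM in OPCs. Summed over the 10 genes, unscaled CPM were 216 to 343 in OPCs and 221 to 376 in SSCs, of which Dars held 42.7% to 58.8% and 21.2% to 40.8%.

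**Figure D1:**
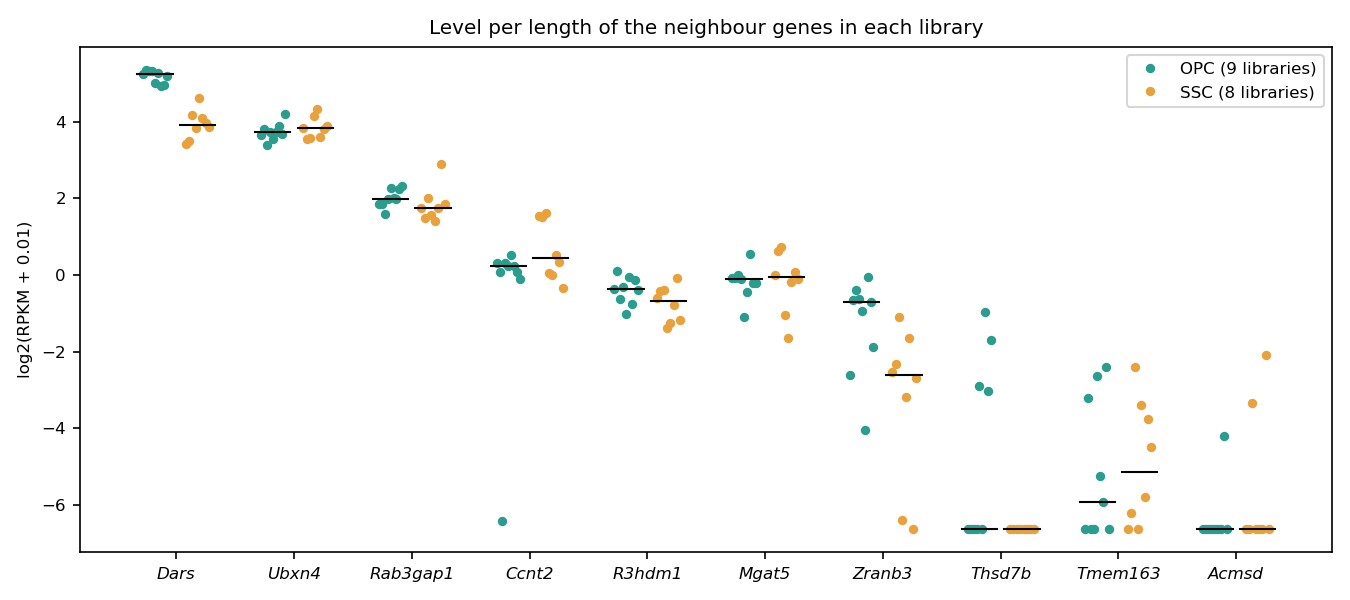
Level per exon length of the 10 neighbour genes in each library, as log2(RPKM + 0.01) on the vertical axis, with genes on the horizontal axis, OPC libraries in green, SSC libraries in orange and the median as a black bar. Dars was lower in SSCs (median 15.0 RPKM) than in OPCs (37.9 RPKM), and the lowest dots are libraries with no or hardly any count.

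No neighbour gene met the criterion for a difference between genotypes, which was a Benjamini-Hochberg adjusted p below 0.05 in edgeR's quasi-likelihood test over all genes and a change of at least 1.5-fold (genes that meet both are termed called). Of the 10 genes, 9 passed the count filter in OPCs (Acmsd did not) and 9 in SSCs (Thsd7b did not), and Thsd7b passed in OPCs through the mutant libraries alone, in which it had reads. In OPCs, 0 of 9 were called in 1013/1013 against WT, where 0.00617% of all 16207 tested genes were called. None was called in +/1013 against WT (0% of all genes), in 1013/1013 against +/1013 (0%) or in the trend over 0, 1 and 2 mutant alleles (0%). In SSCs, 0 of 9 were called in 1013/1013 against WT (0% of 17659 genes), in +/1013 against WT (0.0736%), in 1013/1013 against +/1013 (0%) or in the trend (0%). At an unadjusted p below 0.05 the neighbours numbered 2, 1, 0 and 2 in the 4 OPC comparisons in this order, and 1, 2, 1 and 1 in the SSC comparisons. Thsd7b was among those of every OPC comparison with any. With DESeq2, Thsd7b was called in 1013/1013 OPCs, Ccnt2 in both SSC mutants and Mgat5 in +/1013 SSCs, as given below with the share of genes that DESeq2 called. The WT libraries serve in more than 1 of these comparisons, so the comparisons are not independent.

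Ranges of the library values were also compared. In 1013/1013 OPCs, 3 of the 9 tested neighbours did not overlap with WT (Rab3gap1 and Thsd7b above, Dars below), against 7.61% of all genes. Thsd7b, which the filter admitted through the mutant libraries alone, could not lie below WT. Its place in this count, and in the OPC medians and signs below, is a description only. In +/1013 OPCs there were 2 (Rab3gap1 above, Mgat5 below), against 5.3%. In SSCs the background was far higher, at 41.1% of genes for 1013/1013 and 31.3% for +/1013, and the neighbours numbered 3 in each (Ubxn4 above, Ccnt2 and Zranb3 below; Ccnt2, Mgat5 and R3hdm1 below). The median log2 fold change of the tested neighbours was 0.30 in 1013/1013 OPCs, where 7 of 9 were above 0, and 0.03 in +/1013 OPCs, against medians over all genes of 0.01 and -0.00418. In SSCs it was -0.04 and -1.02, against -0.23 and -0.11 over all genes. The value of -1.02 was that of Zranb3, a gene of few counts, and it was -0.23 without SSC WT replicate 3.

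**Figure D2:**
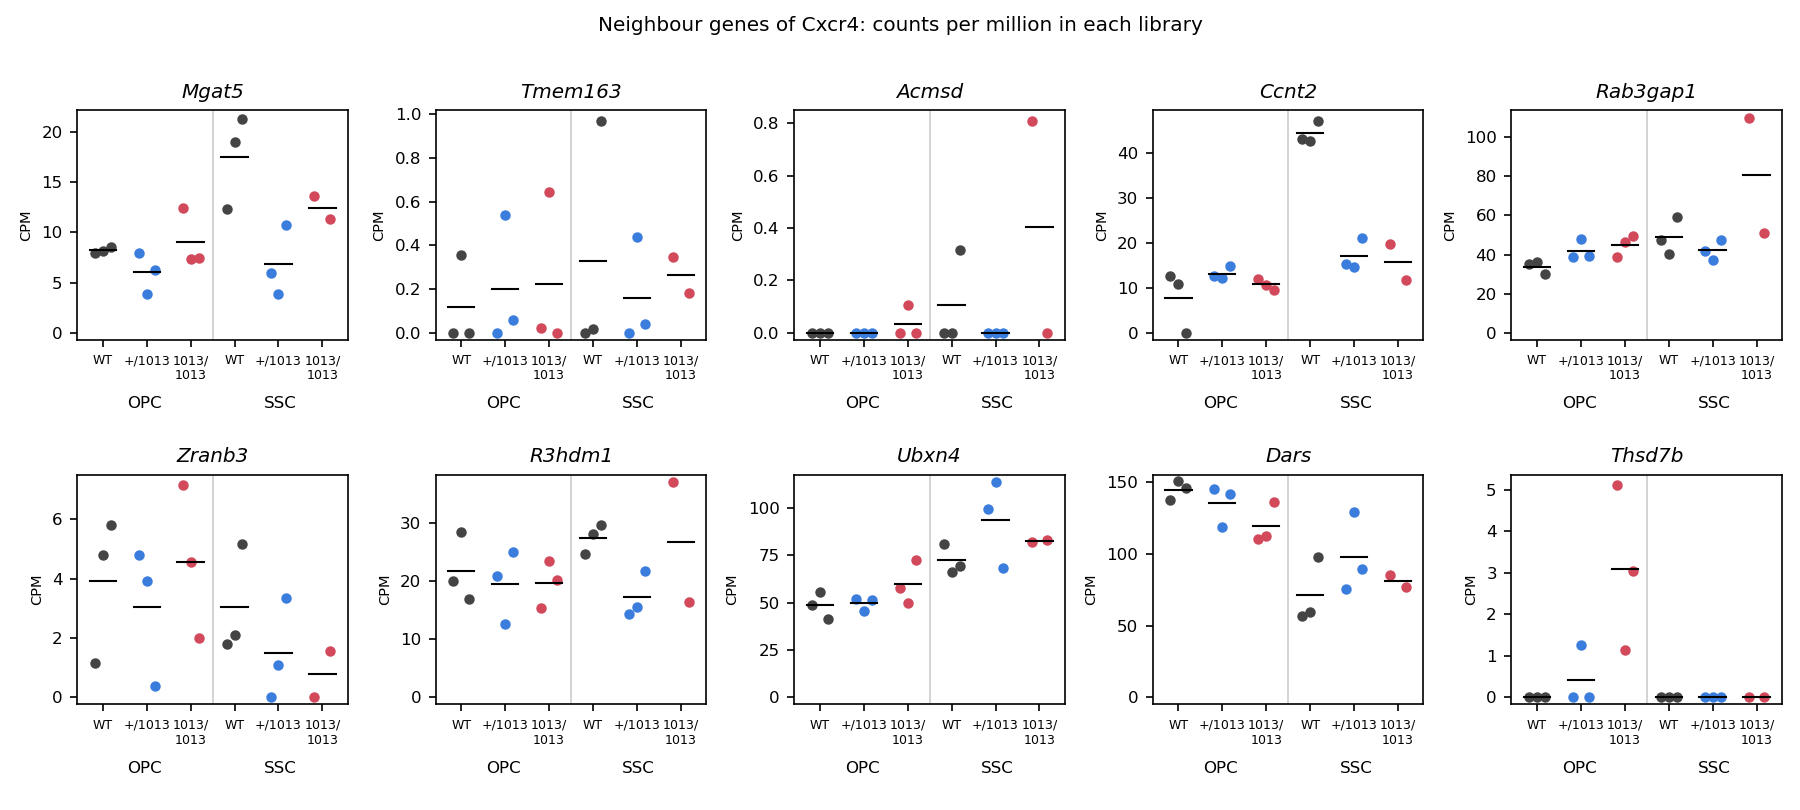
CPM, scaled within each cell type (vertical axes, each from 0), of the 10 neighbour genes in every library, in genome order, by cell type and genotype, where dots are libraries and black bars are means. Thsd7b had counts in the 1013/1013 OPC libraries (1.14 to 5.11 CPM) and in 1 +/1013 OPC library only, Ccnt2 was at 42.6 to 47.0 CPM in WT SSCs and at most 21.005 CPM in mutant SSCs, and 1 WT OPC library held a single Ccnt2 read.

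Thsd7b RNA was found in OPCs that carried the 1013 allele and in no other library. All 3 WT OPC libraries and all 8 SSC libraries had 0 counts. The 1013/1013 OPC libraries had 442, 87 and 197 counts, or 5.11, 1.14 and 3.05 CPM. Of the +/1013 OPC libraries, replicate 2 had 78 counts (1.27 CPM), and the other two had 0. The 1013/1013 and WT groups did not overlap, and the +/1013 group overlapped with both. A limit of 3 counts per WT library corresponds to 0.0339 to 0.0530 CPM. The mean of 3.10 CPM in 1013/1013 OPCs was 72.6-fold the mean of these limits, and the lowest library 21.6-fold the highest limit. Such a limit covers counting error only and not loss of a transcript during amplification, so these folds are not lower bounds on the difference. Since Thsd7b entered the OPC test through the libraries in which it was high, its p-values and its call are given as a description. The edgeR test gave an unadjusted p of 0.0161 and an adjusted p of 1.00 for 1013/1013 against WT, and unadjusted p-values of 0.0397 for +/1013 against WT and 0.00967 for the trend, whose adjusted p was 1.00 as well. DESeq2 gave an adjusted p of 0.0409 for 1013/1013 against WT, with 0.259% of all genes called by the same criterion. The range of adjusted p over the 18 other settings tried was 0.0409 to 1, with 0.882 in edgeR without the filter. The 1013/1013 libraries with 442, 87 and 197 counts had leukocyte shares of 0.00531%, 1.62% and 0.00438%. The +/1013 library with 78 counts had 0.0112%. A relation of Thsd7b reads to leukocyte reads was not tested.

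To set the Thsd7b counts against the rest of the genome, genes were counted that had 0 reads in all 3 WT OPC libraries and over 3 reads in all 3 1013/1013 OPC libraries, a rule chosen after its counts were seen. Of 31167 genes with 0 reads in WT OPCs, 41 met it, and 19 of 30143 met the opposite rule (0 in 1013/1013, over 3 in WT). Ranked by the lowest of the 3 mutant counts, Thsd7b was first with 87, followed by Serpina3c with 78 and Rasgrf2 with 63. The first gene of the opposite list, Col17a1, had 57. Of the 41 genes, 2 lay within 10 Mb of Cxcr4, namely Thsd7b at 1.16 Mb and Ren1, the renin gene, at 4.77 Mb, which is named here because of its counts. In the opposite list 1 of 19 lay within 10 Mb, Gm29376. For scale, 240 genes with a read in any OPC library lay within 10 Mb and 28963 elsewhere, leaving out Cxcr4. Thsd7b was bound to be among the 41, since the rule was set after its counts were seen. Ren1 had 0 reads in the 3 WT OPC libraries, 0, 65 and 251 in +/1013 and 47, 99 and 216 in 1013/1013. In SSCs it had 17 reads in WT replicate 1 and 0 in the other 7 libraries. No gene within 10 Mb of Cxcr4 was among the 21 with 0 reads in WT and over 3 in every +/1013 OPC library, nor among the 7 of the same kind in 1013/1013 SSCs. In SSCs the opposite was far more frequent, with 652 genes at 0 in 1013/1013 and over 3 reads in every WT library.

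Dars, which charges the tRNA of aspartate, was the neighbour closest to Cxcr4 and the one called between the cell types, with lower levels in SSCs. In WT the ranges of Ccnt2 and Mgat5 did not overlap between cell types either, with higher levels in SSCs. Of all genes, 37.9% did not overlap in that comparison. For Dars, WT OPCs had 137, 151 and 146 CPM, and WT SSCs 56.6, 59.8 and 98.0 CPM. On the common RPKM scale the WT ranges were 37.92 to 40.8 in OPCs and 10.7 to 17.99 in SSCs and did not overlap. On the scale of all 17 libraries the log2 difference of SSCs from OPCs was -1.57 ± 0.23 (SE) in WT (edgeR adjusted p = 0.000854), -0.995 ± 0.23 in +/1013 (adjusted p = 0.0116) and -1.12 ± 0.26 in 1013/1013 (adjusted p = 0.0129). Dars was the single neighbour called in each of these comparisons (1 of 10), in which 11.4%, 12.5% and 13.1% of all 20238 genes were called. It remained called in WT under all 25 other settings tried, in +/1013 under 24 (not without SSC +/1013 replicate 1, adjusted p = 0.0563) and in 1013/1013 under 22. In 1013/1013 the adjusted p was 0.0526 without OPC replicate 3, 0.0824 without SSC replicate 1 and 0.0638 without SSC replicate 2. Between genotypes the differences were small. +/1013 OPCs had 145, 119 and 142 CPM, and 1013/1013 OPCs 111, 112 and 136 CPM, so that the 1013/1013 libraries lay just below the WT range. The log2 fold change was -0.28 ± 0.16 for 1013/1013 against WT (95% interval -0.65 to 0.10, edgeR adjusted p = 1.00) and -0.10 ± 0.16 for +/1013. In mutant SSCs, Dars was at 75.3, 129 and 89.4 CPM (+/1013) and 85.0 and 76.6 CPM (1013/1013), overlapping with WT.

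The other cytosolic aminoacyl-tRNA synthetases and their scaffold proteins, a list of 22 genes, were read beside Dars. In WT SSCs against WT OPCs, 21 of 22 lay below 0 with a median log2 difference of -0.70, and 9 were called, all lower. Of all genes, 44% lay below 0 and 11.4% were called in this comparison. Among these were Gars (-1.59 ± 0.29), Mars (-1.21 ± 0.25), Sars (-1.06 ± 0.21), the scaffold gene Aimp1 (-1.02 ± 0.29) and Kars (-0.98 ± 0.19), with edgeR adjusted p-values of 0.00331, 0.00706, 0.00507, 0.0337 and 0.0044. The other called genes were Aars, Farsb, Tars and Yars, at -0.69 to -0.99. In +/1013 and 1013/1013 the list had 6 and 7 called genes, all lower in SSCs, against 12.5% and 13.1% of all genes called. The medians of the list were -0.33 and -0.52, where the medians over all genes were 0.17 (WT), 0 and -0.20. The shares of 11.4% (WT), 12.5% and 13.1% also apply to the partner genes called between SSCs and OPCs below. None of the 22 was called between genotypes in either cell type.

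Ubxn4, the endoplasmic reticulum anchor of p97, overlapped between most groups of a cell type. OPC libraries had 48.8, 55.6 and 41.3 CPM in WT, 51.8, 45.5 and 51.4 CPM in +/1013 and 57.7, 49.7 and 72.6 CPM in 1013/1013. SSC libraries had 81.2, 66.4 and 69.5 CPM, 99.2, 114 and 68.2 CPM, and 82.2 and 83.0 CPM in the same order. The 1013/1013 SSC values lay just above the WT range, and the other groups overlapped with WT. The log2 fold changes for 1013/1013 against WT were 0.30 ± 0.19 (95% interval -0.13 to 0.74) in OPCs and 0.19 ± 0.24 (-0.36 to 0.74) in SSCs. The interval in each case reached past 1.5-fold on the upper side and not on the lower. Of 10 genes of endoplasmic-reticulum-associated degradation, none was called between genotypes, and in WT SSCs against OPCs Vcp, which encodes p97 itself, was called higher (1.39 ± 0.17, edgeR adjusted p = 0.000222). Of the 10, 1 was called higher and 1 lower in each genotype, and 7, 7 and 9 lay below 0 in WT, +/1013 and 1013/1013, with medians of -0.32, -0.24 and -0.48. Vcp was called higher in SSCs of both mutant genotypes as well (1.39 ± 0.17 and 1.28 ± 0.19).

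Ccnt2, the cyclin T2 that pairs with Cdk9 in P-TEFb, was lower in every mutant SSC library than in any WT SSC library. WT SSCs had 43.1, 42.6 and 47.0 CPM. The +/1013 libraries had 15.4, 14.7 and 21.005 CPM, and the 1013/1013 libraries 19.7 and 11.7 CPM. The log2 fold change was -1.38 ± 0.27 for +/1013 (95% interval -2.00 to -0.75) and -1.49 ± 0.31 for 1013/1013 (-2.22 to -0.77). The edgeR test gave unadjusted p-values of 0.00104 and 0.00154 and adjusted p-values of 0.113 and 0.107, above the threshold. DESeq2 called Ccnt2 in both comparisons (adjusted p = 0.000199 and 0.000414), where it called 7.37% of all genes for +/1013 and 9.67% for 1013/1013. Without SSC 1013/1013 replicate 2 it was called by edgeR in 1013/1013 against WT (adjusted p = 0.0443), with the lone library left assumed to vary like the others, in a fit that called 14.8% of all genes. The same split of WT from mutant SSC libraries was seen in the unassigned reads, the number of genes with a count and the osteoblast list given above, and the part of these in the Ccnt2 result was not tested.

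In OPCs Ccnt2 was at 12.6, 12.1 and 14.7 CPM in +/1013 and 11.9, 10.7 and 9.63 CPM in 1013/1013. WT replicates 1 and 2 had 12.6 and 10.9 CPM (1113 and 790 counts), while WT replicate 3 had 1 count. Ccnt2 was the 1 gene that had 3 counts or fewer in a single OPC library and at least 600 in each of the other 8. For comparison, 5915 genes had at least 600 in all 9, and both limits were chosen after the value was seen. In SSCs there were 40 genes of this kind, of which 39 had their low value in 1013/1013 replicate 1. With the low library, the OPC log2 fold changes were 0.46 ± 1.21 for 1013/1013 and 0.75 ± 1.22 for +/1013, and without it they were -0.13 and 0.17. WT SSCs lay above WT OPCs (log2 difference 1.95 ± 0.99, edgeR adjusted p = 0.224), a difference that was called without OPC WT replicate 3 (1.38, adjusted p = 0.00949). In +/1013 and 1013/1013 the log2 difference between cell types was -0.16 ± 0.96 and -0.02 ± 1.07.

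Of 9 partners of Ccnt2 (Cdk9, the other P-TEFb cyclin Ccnt1 and regulators of the complex), none was called between genotypes in OPCs or SSCs. In SSCs, Aff4, a scaffold of the super elongation complex, had log2 fold changes of -1.07 and -1.25 in +/1013 and 1013/1013 (edgeR adjusted p = 0.224 and 0.211), and Ell2 had -1.89 in +/1013 (adjusted p = 0.213). The medians of the list were -0.23 and 0.06. Between cell types, Ell2 was called lower in +/1013 SSCs (-2.63 ± 0.57) and Cdk9 higher in 1013/1013 SSCs (0.69 ± 0.18).

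Zranb3 and R3hdm1 start head to head from the shared window shown above. R3hdm1 had 20.0, 28.4 and 16.9 CPM in WT OPCs, 20.8, 12.7 and 24.995 CPM in +/1013 and 15.3, 23.4 and 20.1 CPM in 1013/1013, with full overlap. In SSCs the values were 24.6, 28.1 and 29.6 CPM in WT, 14.3, 15.5 and 21.8 CPM in +/1013, and 37.1 and 16.3 CPM in 1013/1013. The +/1013 SSC libraries lay below WT (-0.67 ± 0.34, edgeR adjusted p = 0.362), and the 1013/1013 libraries lay on either side of it. Zranb3 had few counts and varied widely within each group, from 0.379 to 7.15 CPM in OPCs and from 0 to 5.18 CPM in SSCs. Its lowest values were 0 counts in SSC 1013/1013 replicate 1 and 1 count in SSC +/1013 replicate 1. The log2 fold changes for 1013/1013 were 0.22 ± 0.93 in OPCs and -1.94 ± 2.16 in SSCs. Across the 17 libraries, as deviations from cell type means, R3hdm1 and Zranb3 had a Pearson r of -0.06, a description over libraries that share 2 cell types. Of 4 other genes of fork remodelling, none was called between genotypes, and Pcna, the sliding clamp that Zranb3 binds, was called higher in SSCs than in OPCs in all 3 genotypes (1.39 ± 0.32 in WT).

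Rab3gap1 was above WT in every mutant OPC library. WT OPCs had 35.4, 36.008 and 29.9 CPM, +/1013 OPCs 38.6, 47.7 and 39.4 CPM and 1013/1013 OPCs 38.9, 46.5 and 49.6 CPM. The log2 fold change was 0.31 ± 0.17 for +/1013 (95% interval -0.08 to 0.70) and 0.41 ± 0.17 for 1013/1013 (0.02 to 0.81), and 0.21 ± 0.08 per mutant allele in the trend. The edgeR test gave unadjusted p-values of 0.106, 0.0411 and 0.0323 and adjusted p-values of 1 and 1.00. In SSCs, WT libraries had 47.5, 40.2 and 59.1 CPM, +/1013 libraries 41.7, 37.4 and 47.2 CPM, and 1013/1013 libraries 110 and 51.1 CPM. The high value belonged to replicate 1, the library with the fewest genes detected. The log2 fold change for 1013/1013 was 0.72 ± 0.33 (edgeR adjusted p = 0.298), 0.06 without replicate 1 and 1.10 without replicate 2. In that last fit it was called (edgeR adjusted p = 0.0394), as were 14.8% of all genes, with replicate 1 as the lone 1013/1013 library assumed to vary like the others. Of 5 partners (the regulatory subunit Rab3gap2, Rab18, Rab3 proteins and Tbc1d20), none was called between genotypes. Rab3gap2 was called higher in WT SSCs than in WT OPCs (0.74 ± 0.21, edgeR adjusted p = 0.0406), and in +/1013 Rab3d was called higher (1.66 ± 0.49) and Tbc1d20 lower (-0.98 ± 0.26) in SSCs. In WT, Rab3gap1 itself had a log2 difference of -0.01 ± 0.24.

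Mgat5, which builds the branched N-glycans bound by galectins, was lower in all 3 +/1013 SSC libraries than in WT. WT SSCs had 12.3, 19.0 and 21.3 CPM, +/1013 SSCs 5.95, 3.87 and 10.7 CPM and 1013/1013 SSCs 13.6 and 11.4 CPM. The log2 fold change was -1.36 ± 0.46 for +/1013 (edgeR unadjusted p = 0.0185, adjusted p = 0.206) and -0.49 ± 0.51 for 1013/1013 (adjusted p = 0.611). DESeq2 called the +/1013 difference (adjusted p = 0.038). In OPCs, WT libraries had 8.004, 8.11 and 8.57 CPM, +/1013 libraries 7.92, 3.92 and 6.29 CPM and 1013/1013 libraries 12.4, 7.37 and 7.46 CPM. Here too the +/1013 libraries lay below the WT range (-0.45 ± 0.35, adjusted p = 1), with replicate 1 just outside it. The reads of Mgat5 and the reads of Tmem163 can meet in 152 shared bases, a small part of the 10291 exonic bases of Mgat5. Of 7 genes of N-glycan branching (6 tested in SSCs), none was called between genotypes or between cell types.

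Tmem163 and Acmsd were close to the limit of detection. Tmem163 had at most 49 counts in a library, in OPC 1013/1013 replicate 2 and in SSC WT replicate 3. It had 0 to 26 counts in WT OPCs, 0 to 33 in +/1013, 0 to 49 in 1013/1013, and in SSCs 0 to 49, 0 to 19 and 8 to 15, with all groups overlapping. The 2 libraries at 49 counts were also 2 of the 3 with the highest leukocyte share, while the third of these, OPC WT replicate 3, had 0 counts. The next highest counts, 33 in OPC +/1013 replicate 2 and 26 in OPC WT replicate 2, came with leukocyte shares of 0.0112% and 0.00554%. A relation of Tmem163 reads to leukocyte reads was not tested. Acmsd had 8 counts in OPC 1013/1013 replicate 2, 16 in SSC WT replicate 3 and 35 in SSC 1013/1013 replicate 1, and 0 in the other 14 libraries. No difference in either gene was detectable at this depth, at which 3 counts correspond to 0.0339 to 0.0530 CPM in WT OPCs and 0.0546 to 0.0694 CPM in SSCs. Of the 7 other genes of the kynurenine pathway (5 tested in OPCs), none was called between genotypes. Qprt, an enzyme of the route to NAD from which Acmsd diverts, was called higher in +/1013 and 1013/1013 SSCs than in OPCs. In +/1013, Tdo2, which opens the pathway, was called higher in SSCs as well. None of 6 paralogs of R3hdm1, Thsd7b and Tmem163 was called in any comparison.

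**Figure D3:**
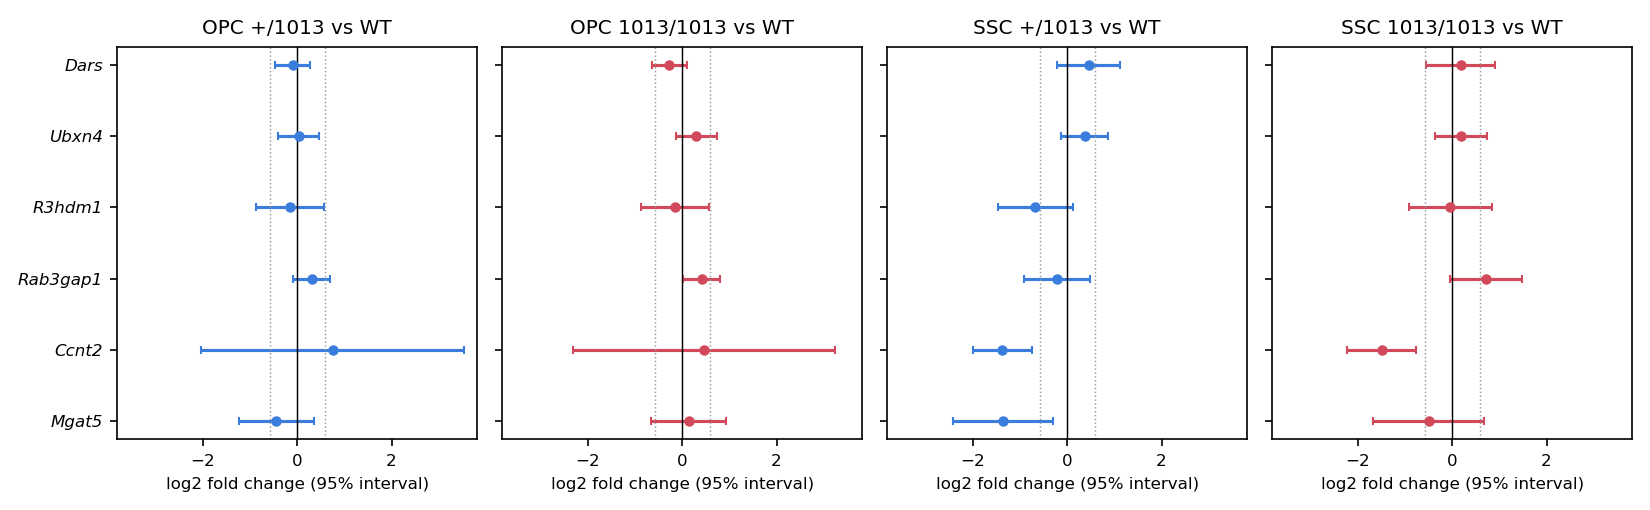
Log2 fold change against WT (horizontal axes) of the 6 neighbour genes with the most counts, in +/1013 and 1013/1013 OPCs and SSCs, with 95% intervals from edgeR as bars and dotted lines at 1.5-fold. Intervals of Ccnt2 lay wholly below 0 in SSCs (-1.38 and -1.49) and were wide in OPCs, where 1 WT library had a single read, and the Rab3gap1 interval in 1013/1013 OPCs reached from 0.02 to 0.81.

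Whether an effect of genotype differed between the cell types was tested by interaction contrasts over all 17 libraries. None of the 10 neighbours was called for 1013/1013 (0.153% of all genes) or for +/1013 (0.084%), and the lowest edgeR adjusted p was 0.547 and 0.555. For Ccnt2 the mutant effect in SSCs minus that in OPCs was -1.97 ± 1.47 (1013/1013) and -2.11 ± 1.37 (+/1013), and for Dars 0.44 ± 0.34 and 0.57 ± 0.32. The intervals of these 2 genes included 0.

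The remaining protein-coding genes of the interval were read in the same way. Cxcr4 itself overlapped between genotypes in OPCs, at 5.34 to 12.7 CPM in WT, 3.74 to 16.2 CPM in +/1013 and 3.86 to 15.4 CPM in 1013/1013. Since the mutation changes the coding sequence, its RNA level does not check the genotype labels. In SSCs it was at 1.57, 0.873 and 59.1 CPM in WT, 0.249, 0.370 and 0.210 CPM in +/1013 and 0.139 and 1.01 CPM in 1013/1013, where the WT library at 59.1 CPM was the one with 1.46% leukocyte counts. The log2 fold changes against WT were -6.20 ± 1.83 and -5.15 ± 2.08 (edgeR adjusted p = 0.179 and 0.255). Between cell types it was called lower in SSCs than in OPCs in +/1013 (-5.44 ± 1.47, edgeR adjusted p = 0.0267). Mcm6, a subunit of the replicative helicase, had 72.2, 46.4 and 190 CPM in WT SSCs against 47.8, 39.98 and 46.8 CPM in +/1013 and 6.93 and 15.6 CPM in 1013/1013 (log2 fold change -3.19 ± 0.67 for 1013/1013, adjusted p = 0.107). Its highest SSC value was in the same leukocyte-rich library, and the 2 highest OPC values, 91.5 and 74.997 CPM, were in the other two. Map3k19 and Lct, the lactase gene, had 0 counts in 5 and in 13 libraries and were called in no comparison of genotypes.

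Of all genes within 10 Mb of Cxcr4, none was called between genotypes. The single gene called in 1013/1013 OPCs, Stk25, lay on the same chromosome at -34.95 Mb from Cxcr4 (negative values are towards lower coordinates). The share of genes with an unadjusted p below 0.05 was then taken by distance from Cxcr4, leaving Cxcr4 out. In 1013/1013 against WT OPCs it was 2 of 15 genes within 2 Mb (13.3%), 10 of 125 at 2 to 10 Mb (8%), 14 of 243 at 10 to 40 Mb (5.76%), 19 of 623 on the rest of chromosome 1 (3.05%) and 503 of 15191 on other chromosomes (3.31%). The 2 genes within 2 Mb were Thsd7b and Rab3gap1. In +/1013 OPCs the shares were 6.67% (1 of 15, Thsd7b), 8%, 4.12%, 1.93% and 1.96% in the same order. Without Thsd7b, which the filter admitted through the mutant libraries, the nearest class held 1 of 14 genes (7.14%) in 1013/1013 and 0 of 14 in +/1013, below the share at 2 to 10 Mb in both. Within 10 Mb as a whole, 12 of 140 genes (8.57%) stood against 3.34% elsewhere in 1013/1013 OPCs, and 11 of 140 (7.86%) against 1.99% in +/1013 OPCs, and without Thsd7b 11 of 139 (7.91%) and 10 of 139 (7.19%). The share near Cxcr4 was the larger under all 19 other settings tried in each comparison, at 5.33% to 14% against 2.36% to 6.31% and at 3.45% to 9.56% against 1.29% to 3.8%. Most of these settings kept Thsd7b, and the shares without it still held Ren1, which also had 0 reads in WT OPCs. The filter of at least 10 counts in every library left out both genes. Under it the shares were 12.4% against 3.73% in 1013/1013 and 6.74% against 1.29% in +/1013. These shares are a description with no test, since neighbouring genes are not independent, and both comparisons use the same WT libraries.

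In SSCs the order differed between comparisons. The shares in 1013/1013 against WT SSCs were 15.8% (3 of 19 genes), 18.5%, 18.9%, 17.9% and 18.3% from the nearest class to other chromosomes, and in +/1013 against WT SSCs 10.5%, 15.4%, 15.3%, 16.9% and 17.4%. In 1013/1013 against +/1013 SSCs they were 15.8% (3 of 19), 9.23%, 5.82%, 4.8% and 5.52%, with the larger shares near Cxcr4. Within 10 Mb the share was 18.1% against 18.2% elsewhere in 1013/1013 against WT, 14.8% against 17.4% in +/1013 against WT and 10.1% against 5.49% in 1013/1013 against +/1013. Of 17 other settings, the share near Cxcr4 was the larger in 13, 9 and 15 in the same order. With at least 10 counts in every library, for example, it was 28.2% against 24% in 1013/1013 and 30.8% against 23% in +/1013 against WT. The share of genes below WT at 2 to 10 Mb was 68.5% in 1013/1013 and 72.3% in +/1013 SSCs. On other chromosomes it was 57.8% and 55%, and within 2 Mb 57.9% and 68.4%. In OPCs the shares at 2 to 10 Mb were 42.4% and 50.4%, against 49.2% and 50.5% on other chromosomes. These shares are a description as well and were not tested.

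**Figure D4:**
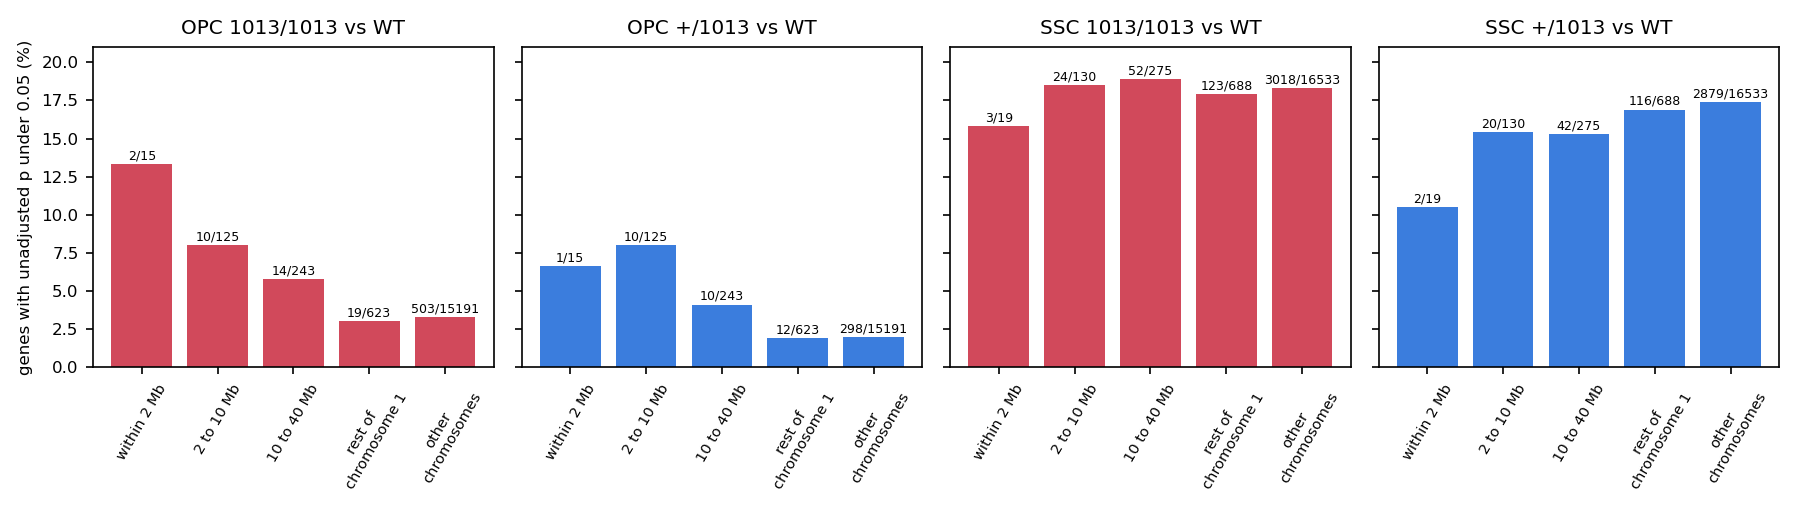
Share of tested genes with an unadjusted p below 0.05 in edgeR (vertical axis, percent) by distance class from Cxcr4 (horizontal axis), in each mutant genotype against WT, with the number of such genes and of tested genes above each bar. In OPCs the share was 13.3% (2 of 15 genes) within 2 Mb and 3.31% on other chromosomes for 1013/1013, whereas in SSCs every class of 1013/1013 lay between 15.8% and 18.9%. Without Thsd7b, which the filter admitted through the mutant libraries, the nearest class held 1 of 14 genes (7.14%) in 1013/1013 OPCs.

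**Figure D5:**
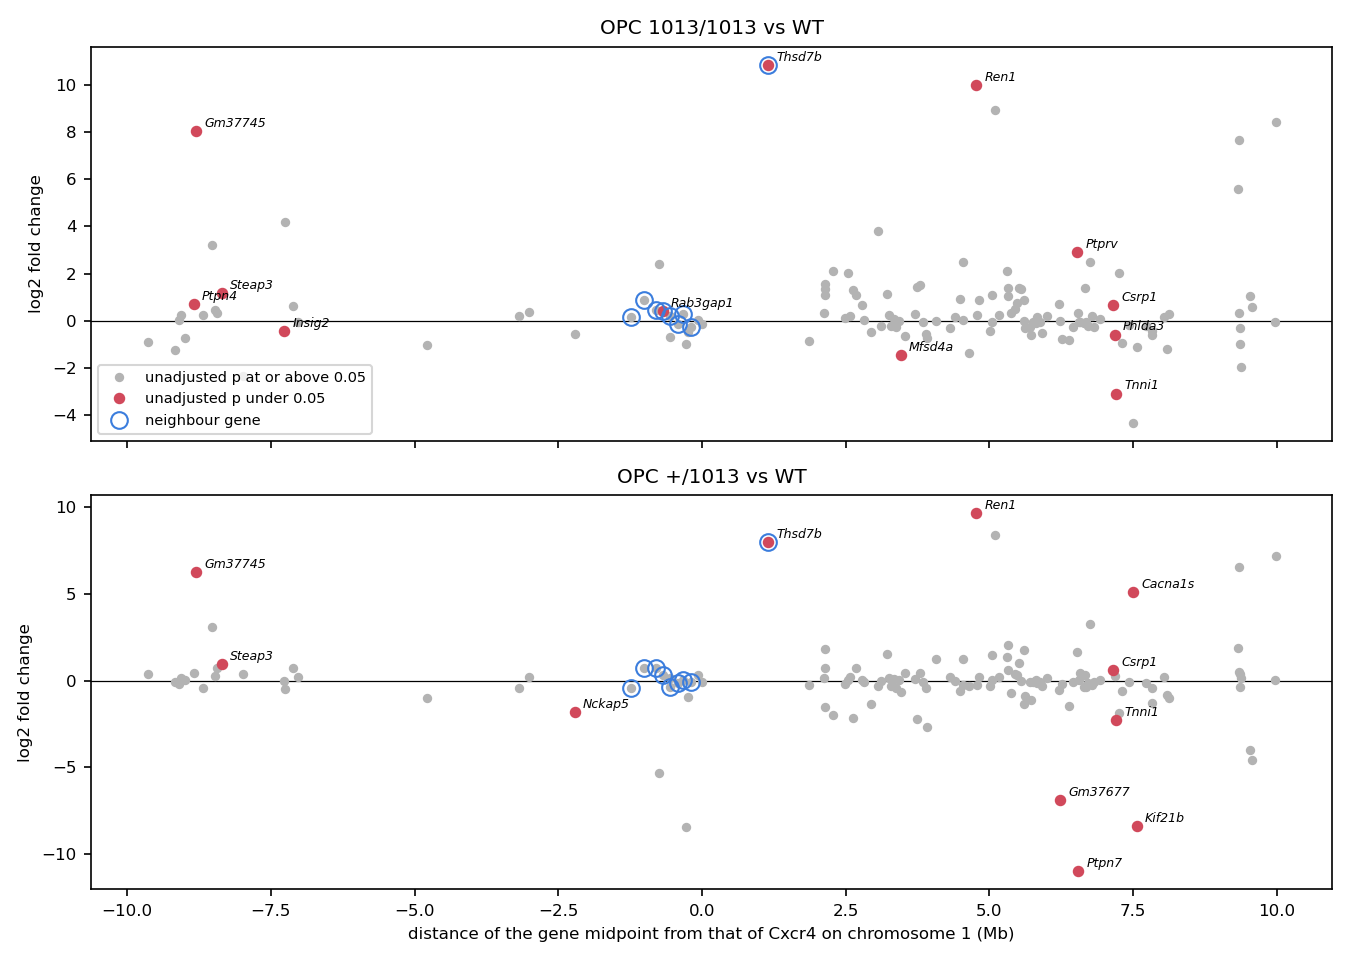
Log2 fold change against WT in OPCs (vertical axes) of every tested gene within 10 Mb of Cxcr4, by signed distance in Mb (horizontal axis), for 1013/1013 (top) and +/1013 (bottom), with genes at an unadjusted p below 0.05 in red and neighbour genes ringed in blue. Most neighbour genes lay near 0, and the high points Thsd7b and Ren1 had 0 counts in all WT OPC libraries, so their fitted values have no scale beyond being above 0.

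The neighbours did not vary as one block. Over pairs of the 10 genes, deviations from cell type means across the 17 libraries (log2 of CPM + 0.5) gave a Pearson r from -0.517 (Ubxn4 and Mgat5) to 0.843 (Rab3gap1 and Acmsd). The latter pair shared its high value in SSC 1013/1013 replicate 1. R3hdm1 and Mgat5 had 0.583, and Dars had 0.282 with Ubxn4. Among 20238 genes, the gene most like each neighbour lay on another chromosome in all 10 cases: Ccnt2 with Fam214a (r = 0.947, chromosome 9), Dars with Gm5422 (0.927, chromosome 10), Rab3gap1 with Bex2 (0.89, chromosome X), Ubxn4 with Ccdc47 (0.888, chromosome 11), Mgat5 with Traf3 (0.881, chromosome 12) and R3hdm1 with Actn2 (0.833, chromosome 13). For the genes with few counts these were Acmsd with Gm2822 (0.977, chromosome 13), Tmem163 with Pard6b (0.914, chromosome 2), Zranb3 with Acot6 (0.868, chromosome 12) and Thsd7b with Zfp473 (0.855, chromosome 7). Such maxima over many genes are descriptions over 17 libraries that share 2 cell types, and those of Acmsd and Thsd7b rest on the 3 and 4 libraries in which they had reads. Of the 20238 genes, 18897 lay on other chromosomes, so a best match away from chromosome 1 does not tell whether the neighbours varied together.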

How the data were processed

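RNA-seq libraries (17) were prepared by the study from small sorted pools of cells (SMART-Seq v4 with 12 amplification cycles on 400 to 1000 pg of RNA, then Nextera XT) and sequenced paired-end. The deposited values were raw read counts per gene, which the authors made by removing reads under 50 bases, aligning with STAR to mm10 and counting with HTSeq. Tool versions, annotation release and strand setting were not given in the sources used here. The summary rows of the count files were kept out of all tests: 1.15% to 4.15% of reads lay outside features, 1.87% to 3.93% were ambiguous and 5.10% to 10.4% aligned to several places. No pair of replicates agreed within sampling noise. The kit amplifies whole transcripts without molecular identifiers, so limits set by 3 counts cover counting error only.

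From the counts, edgeR 4.0.16 (R 4.3.3, limma 3.58.1) was run with TMM scaling, its expression filter and the quasi-likelihood F test over all genes, with the 3 genotypes of a cell type in one fit, and all 17 libraries in one fit for contrasts of cell type and interactions. CPM are TMM-scaled within a cell type, except those of the sort markers and of the summed neighbours, and RPKM over all libraries. Calls needed a Benjamini-Hochberg adjusted p under 0.05 and 1.5-fold. The SE was the log2 fold change divided by the square root of F. The scripts were tested on simulated counts. Alternatives were DESeq2 1.42.0, other scaling, filters, samples and a replicate block. P-values measure the spread between these pooled libraries.

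Of the identifiers, 55154 matched GENCODE M21 (567 under another version number) and 181 did not, with at most 0.002% of counts. All 10 neighbours are named, with the protein-coding genes of their interval, and partners by fixed lists. Partners given with values are examples chosen after their values were seen, as are the genes said to be named for their values. The gene most like each neighbour is that of highest Pearson r. The members and lists were chosen with earlier results of these data known. Some values of the partner lists and of the promoter windows are not reported here.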

Additional observations from a re-analysis of the deposited data

How the results depend on the processing

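Of 278 alternative counts of called neighbour genes over 13 comparisons, 266 were within 1.5 times the reported count. In each comparison other than those between cell types the reported count was 0, so there only a count of 0 was within it. Many of these edgeR settings called few or no genes of any kind, so a count of 0 carries little weight. With DESeq2 the count was 1 in 1013/1013 against WT OPCs (Thsd7b), 1 in 1013/1013 against WT SSCs and 1 in the SSC trend (Ccnt2), and 2 in +/1013 against WT SSCs (Ccnt2 and Mgat5). Over all genes, DESeq2 called 42 genes in 1013/1013 OPCs, where edgeR called 1, and 1708 and 1302 in 1013/1013 and +/1013 SSCs, where edgeR called 0 and 13. In SSCs, the number edgeR called was 54 and 72 with at least 10 counts in every library, and 212 and 145 with all 17 libraries in one fit. Without the 2 OPC libraries with most leukocyte counts (chosen after seeing the data), 2 neighbours were called between WT SSCs and OPCs (Dars and Ccnt2).

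Leaving out 1 library at a time, the counts ranged from 0 to 2 in 1013/1013 against WT SSCs (2, Ccnt2 and Rab3gap1, without SSC 1013/1013 replicate 2), from 0 to 1 in 1013/1013 against +/1013 SSCs (1, Rab3gap1, without the same library, in fits that called 2931 and 1812 of 19758 genes with a lone 1013/1013 library), from 1 to 2 between WT cell types (2 without OPC WT replicate 3), from 0 to 1 between +/1013 cell types (0 without SSC +/1013 replicate 1) and from 0 to 2 between 1013/1013 cell types. In the last, 0 were called without OPC 1013/1013 replicate 3 or SSC 1013/1013 replicate 1, and 2, with Thsd7b, without OPC +/1013 replicate 2.

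Not all samples with the same number deviated together (r from -0.372 to 0.40 in OPCs, over 0.1 in 6 of 9 pairs against 5 of 18 pairs with different numbers, and from -0.139 to 0.119 in SSCs, in 2 of 7 against 2 of 14), and since not every pair was over 0.1 the numbers were not taken to pair them. With the replicate block, the count of called neighbours was 0 in every genotype comparison and 1 in each comparison of cell types, as without it. Signs that turned under the block were those of log2 fold changes near 0 or of genes with few counts: Zranb3 in 1013/1013 OPCs (-0.17), R3hdm1 and Tmem163 in 1013/1013 against +/1013 OPCs (-0.0108 and -0.32), R3hdm1 and Tmem163 in 1013/1013 SSCs (0.0162 and 4.35) and Tmem163 in +/1013 SSCs (1.20). With upper-quartile scaling, R3hdm1 turned in 1013/1013 against +/1013 OPCs (-0.0312) and in 1013/1013 SSCs (0.0361), and Ccnt2 between 1013/1013 cell types (0.0496). Without the 2 OPC libraries with most leukocyte counts, the values that turned were Ccnt2 and Tmem163 in 1013/1013 OPCs (-0.12 and -3.72), Ubxn4 and Zranb3 in +/1013 OPCs (-0.0768 and 0.0209), R3hdm1 and Tmem163 in 1013/1013 against +/1013 OPCs (-0.14 and -3.86) and Ccnt2 between 1013/1013 cell types (0.0121).

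Ranges that crossed 0 when 1 library was left out were, in 1013/1013 against WT OPCs, R3hdm1 -0.30 to 0.0899, Zranb3 -0.24 to 0.61, Ccnt2 -0.13 to 0.99, Tmem163 -3.15 to 7.06 and Mgat5 -0.14 to 0.26. In +/1013 OPCs they were Ubxn4 -0.0772 to 0.14, R3hdm1 -0.38 to 0.0811, Zranb3 -0.87 to 0.15 and Tmem163 -1.95 to 6.89, and in 1013/1013 against +/1013 OPCs R3hdm1 -0.22 to 0.23 and Tmem163 -3.88 to 2.84. In SSCs they were R3hdm1 -0.75 to 0.37, Tmem163 -0.90 to 4.497 and Acmsd -5.40 to 2.84 for 1013/1013 against WT, Tmem163 -3.83 to 3.79 for +/1013 against WT, and R3hdm1 -0.0752 to 1.05, Zranb3 -9.20 to 0.50 and Ccnt2 -0.54 to 0.15 for 1013/1013 against +/1013. Between 1013/1013 cell types Ccnt2 ranged from -0.40 to 0.33. None of the values that turned was called, and their cause was not tested.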
